A study of Mus musculus with 2 samples.

Results

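Late G2 and mitotic mouse embryonic stem cells were taken here as the 771 cells with the highest summed level of 8 cell division genes, out of 7709 kept cells in 2 single-cell RNA libraries. The score of a cell was its summed unique molecular identifiers (UMIs, each marking 1 captured RNA molecule) of Ccnb1, Cdc20, Plk1, Aurka, Cenpa, Cenpf, Cenpe and Ube2c per 10000 UMIs of that cell. Cells in the top 10% of both libraries together are called high-score cells, and the rest are the other cells. A kept cell had at least 2500 UMIs, at least 1000 genes and at most 10% of its UMIs in mitochondrial genes. The cells were thus chosen by the measured RNA of these 8 genes, and every ratio of high-score over other cells below is a description of the cells so chosen.

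All cells were E14 mouse embryonic stem cells of the 129/Ola background, an established line kept in medium with serum and leukaemia inhibitory factor (LIF). The group called control was given control siRNA (small interfering RNA) and the group called sonKD with siRNA against Son, both by Lipofectamine2000. Son encodes a large RNA-binding protein of nuclear speckles, the nuclear bodies rich in splicing factors. In both groups the cells were collected 24 h after transfection, frozen, thawed, sorted for exclusion of the dye 7-AAD and barcoded with 10x Genomics 3' chemistry. Each group is 1 library from 1 transfection, so an effect of the knockdown and a difference between the libraries cannot be told apart. No significance test was made, and all intervals are 95% intervals that cover counting error only.

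In late G2, cyclin B accumulates and activates the kinase CDK1, and the kinases PLK1 and Aurora A drive the building of a bipolar spindle. In mitosis, chromosomes are condensed, their kinetochores attach to microtubules, and the spindle checkpoint restrains the anaphase promoting complex, a ubiquitin ligase, until attachment is complete. The genes for this machinery are transcribed late in the cycle, largely under the MuvB complex with B-MYB and FOXM1, whereas replication-dependent histone RNA is made in S phase and removed at its end. Embryonic stem cells cycle fast and spend little time in G1.

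The control library held 71046373 UMIs over all its barcodes and gave 4978 kept cells with a median of 7737.5 UMIs. The sonKD library held 60352438 UMIs and gave 2731 kept cells with a median of 11612 UMIs, so depth per cell differed between the groups. Mitochondrial content removed 625 control and 1056 sonKD barcodes, and 69 (11%) and 68 (6.44%) of these removed barcodes lay above the score threshold. Barcode sequences present in both sets of kept cells numbered 2. Son itself checked the labels. Over high-score cells it had 175 CPM (counts per 1000000 UMIs, from counts summed over cells; 95% interval 164 to 187) in control and 137 CPM (125 to 151) in sonKD, and over other cells it had 168 and 102 CPM. Son was thus lower in the library labelled sonKD in both classes of cells.

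High-score cells were 550 of 4978 control cells, or 11% (exact binomial interval 10.2 to 12), and 221 of 2731 sonKD cells, or 8.09% (7.1 to 9.18). When cells were scored after thinning to 2500 UMIs each, 568 control and 245 sonKD cells had a high score. At full depth the threshold over both libraries lay at 24.9 score UMIs per 10000, against a median of 10.6 over all kept cells. The highest score was 85.4 in control and 84.0 in sonKD. The scores formed a continuum across the threshold: the lowest score inside was 24.8627 and the highest outside was 24.8503. Within 10% of the threshold lay 208 cells above it and 200 cells below it. The high-score cells are therefore the upper end of a continuous score. Cells were not clustered, and with no measure of DNA content late G2 and mitosis cannot be told apart.

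**Figure D1:**
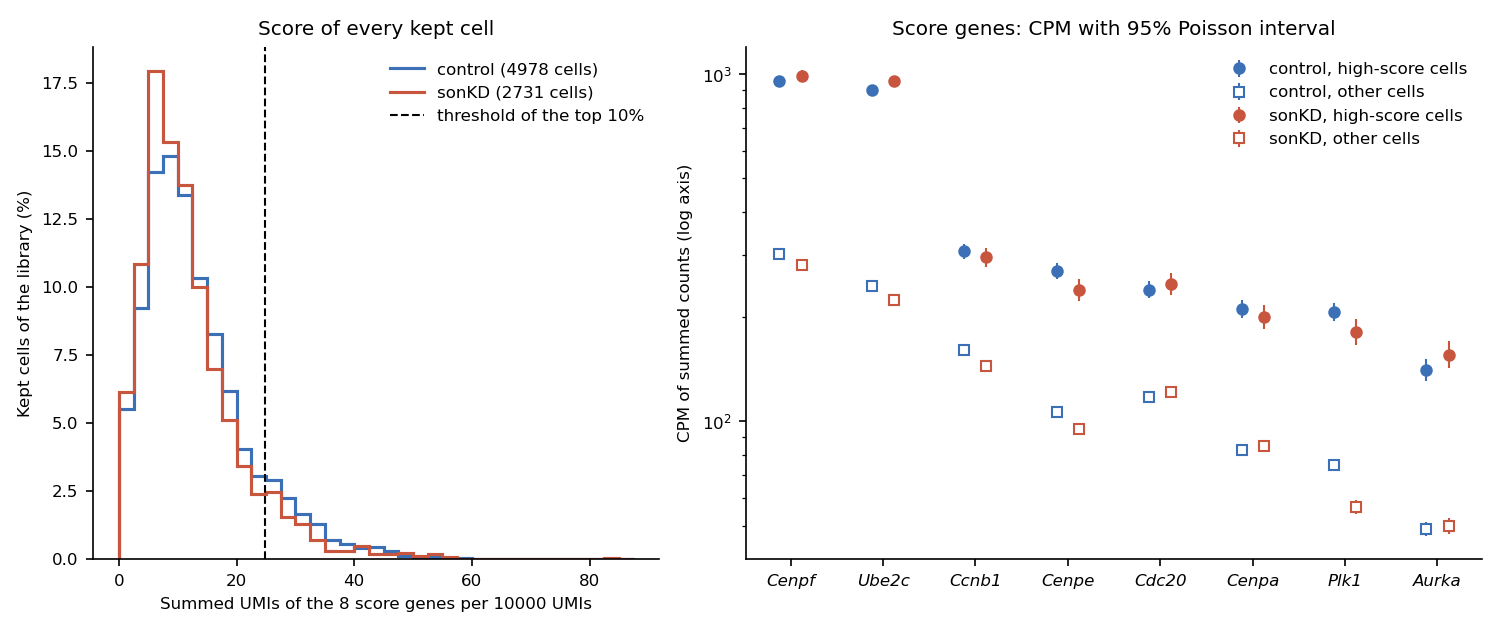
Left, percent of kept cells of each library (y axis) by score (x axis, summed UMIs of the 8 genes per 10000 UMIs), with the threshold as a dashed line. Right, CPM of each score gene on a log axis in high-score (filled) and other cells (open), with 95% Poisson intervals. The scores run on across the threshold without a gap, and all 8 genes are higher in high-score cells of both libraries, which the choice of cells required.

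The score of a typical high-score cell rested on several genes. Its median was 29 score UMIs from 7 of the 8 genes in control and 45 score UMIs from all 8 genes in sonKD. All 8 genes were detected in 211 control high-score cells (38.4%) and 142 sonKD high-score cells (64.3%), and fewer than 5 genes in 8 and 9 cells. When every cell was thinned to 2500 UMIs, the median was 4 genes in high-score cells and 2 genes in other cells of both libraries. At equal depth the medians of the libraries were thus the same.

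Ube2c and Cenpf weighed most in the score. Ube2c, the ubiquitin-conjugating enzyme that works with the anaphase promoting complex, had 899 CPM in high-score and 245 CPM in other control cells. In sonKD it had 953 and 222 CPM. Cenpf, a kinetochore protein that builds up in late G2, had 954 and 302 CPM in control and 988 and 282 CPM in sonKD. Together these genes stood apart from the other 6, as Cenpf gave 29.6% and Ube2c 27.8% of the score UMIs of control high-score cells, and 30.3% and 29.2% in sonKD. In free RNA, read from droplets with 100 to 500 UMIs, Ube2c reached 313 CPM (control) and 261 CPM (sonKD), above its level in other cells. The same held for Ccnb1 at 190 and 162 CPM of free RNA, Cdc20 at 147 and 136 CPM and Cenpa at 89.9 and 87.0 CPM, so a UMI of these 4 genes outside high-score cells may not mark their expression. Cenpf was at 131 and 99.4 CPM in the same droplets, below its level in other cells.

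The kinases and the cyclin of the score were less abundant. Plk1, the polo-like kinase of mitotic entry, was at 206 CPM against 74.9 CPM in control and at 181 against 56.5 CPM in sonKD. Aurka, the spindle kinase Aurora A, was at 140 against 49.0 CPM and at 155 against 49.8 CPM. Ccnb1, which encodes cyclin B1, was at 309 against 160 CPM and at 296 against 144 CPM. On the log2 scale the ratios of these genes ran from 0.95 for Ccnb1 in control to 1.68 for Plk1 in sonKD.

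Cdc20, the activator of the anaphase promoting complex at anaphase onset, was at 239 against 118 CPM in control and at 248 against 121 CPM in sonKD. Cenpa, the histone H3 variant of centromeres, had log2 ratios of 1.35 in control and 1.23 in sonKD. Cenpe, a kinesin of the kinetochore, had log2 ratios of 1.35 and 1.34. Over all kept cells thinned to 2500 UMIs, the 28 pairs of score genes all had positive Spearman correlations, from 0.01 to 0.23 in control and from 0.01 to 0.21 in sonKD. Within the high-score cells they ran from -0.09 to 0.09 in control, with 12 of 28 negative, and from -0.14 to 0.15 in sonKD, with 14 of 28 negative. These are weak correlations in sparse counts over cells that share a library. The high-score cells were chosen by the sum of these same score genes, and that choice by itself lowers correlations among them. The values within high-score cells therefore cannot show whether the score genes vary together there.

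High-score cells were somewhat deeper than the others. Their median was 9014 UMIs and 3244.5 genes against 7637 UMIs and 2846 genes in control, and 13930 UMIs and 3971 genes against 11472 UMIs and 3456 genes in sonKD. After thinning to 2500 UMIs the medians were 1371 against 1345 genes in control and 1312 against 1289 genes in sonKD. Mitochondrial genes took a median of 3.58% of UMIs in high-score and 3.67% in other control cells, and 3.99% and 4.11% in sonKD. Doublets were kept, since the caller Scrublet marked only 0.0603% of control and 0.0366% of sonKD cells, too few for a working call. Of the cells with the highest doublet scores, taken at an expected rate, 10 lay among the 550 control and 2 among the 221 sonKD high-score cells, or 1.82% and 0.905%, below the 4.25% and 2.31% among other cells.

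Cell division genes outside the score were among the highest of the ranking. Of the 8055 genes that averaged 10 CPM or more, score genes left out, 96 (1.19%) were at least 1.5-fold higher in high-score cells of both libraries and 7 (0.0869%) at least 1.5-fold lower. In control alone 131 genes (1.63%) were that much higher and 16 (0.199%) lower, and in sonKD alone 185 (2.3%) higher and 63 (0.782%) lower. The median log2 ratio over all 8055 genes was 0.01 in control and 0.02 in sonKD. These shares belong to the contrast that chose the cells and are given as its background.

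The highest gene outside the score was Nusap1, which encodes a protein that bundles spindle microtubules near chromosomes. Nusap1 was at 259 CPM in high-score and 87.8 CPM in other control cells, and at 263 and 83.3 CPM in sonKD. Its log2 ratio was 1.56 (1.46 to 1.65) in control and 1.66 (1.54 to 1.78) in sonKD. Fam83d, which anchors casein kinase 1 at the spindle, followed with log2 ratios of 1.45 and 1.5 at 33.2 and 33.6 CPM in high-score cells. Prc1, the bundler of antiparallel microtubules in the central spindle, had 1.24 and 1.42, and Hmmr, a spindle assembly protein, had 1.11 and 1.18. Kif18a, the kinesin that aligns chromosomes at the spindle equator, had 1.29 and 1.31. Spindle proteins thus held several of the leading places in both libraries.

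Proteins of mitotic chromosomes and of membranes were also among the 20 highest. Top2a, the topoisomerase that untangles sister chromatids, was among the most abundant at 837 against 394 CPM in control and 737 against 315 CPM in sonKD. Cdca2, which brings protein phosphatase 1 to anaphase chromatin, had log2 ratios of 1.19 and 1.21. Arl6ip1, a shaper of endoplasmic reticulum membranes, was at 659 against 261 CPM in control and 673 against 265 CPM in sonKD, a log2 ratio of 1.34 in each. Reep4, which keeps endoplasmic reticulum off mitotic chromosomes, had 1.33 and 1.32 from 120 and 78 UMIs in high-score cells. Cenpl, a member of the constitutive centromere network, had 1.07 and 1.26.

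Regulators of the cycle completed the group. Cdk1, the kinase that cyclin B activates, was at 158 against 76.5 CPM in control and 195 against 93.4 CPM in sonKD, a log2 ratio of 1.05 and 1.06. Ccnf, an F-box protein of the cyclin family, had 1.06 and 1.08. Fzr1, the activator of the anaphase promoting complex in late mitosis and G1, was at 89.4 against 38.1 CPM in control and at 61.3 against 28.8 CPM in sonKD. Its ratio was 1.23 and 1.09. The other members of the 20 were Emp1, Miip, Gna15, Pimreg, Fam110a, Depdc1a and Dnah8, with ratios between 1.06 and 1.56. Dnah8, an axonemal dynein, overlaps Glo1 and other genes on the opposite strand, and the use of strand in counting is not given in the sources used here, so its value is uncertain.

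**Figure D2:**
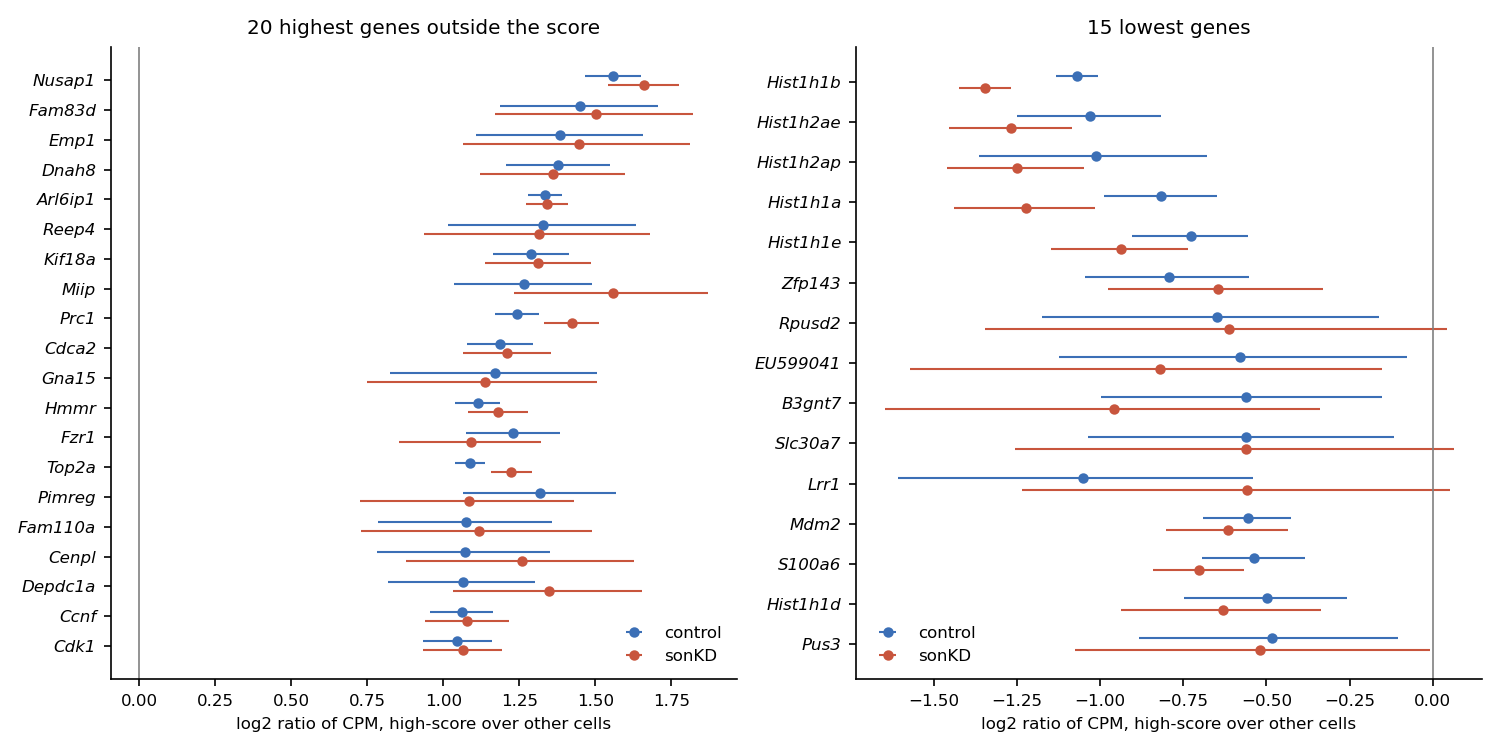
Log2 ratio of CPM in high-score over other cells (x axis) for the 20 highest genes outside the score (left) and the 15 lowest (right), ordered by the ratio nearer to 0, with 95% counting intervals. In the left panel all ratios lie above 0 in control and sonKD, and some differ between them, such as Miip at 1.27 and 1.56. In the right panel 6 clustered histone genes, led by Hist1h1b, lie lower in sonKD than in control.

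Promoters of these genes were read because many late cell cycle genes are known to carry the CHR, a cell cycle homology region bound by the MuvB complex, and CCAAT boxes bound by NF-Y. The windows are the 250 bases before each RefSeq start on GRCm38.p6. CHR was searched as TTTGAA or TTCGAA and the box as CCAAT, each on both strands and without regard to overlap. Of 96 genes at least 1.5-fold higher in high-score cells of both libraries, 76 matched the table with 94 promoters. A CHR was present in 38.3% of these promoters, against 17.1% of all 32851 promoters and 12.2% of the 8240 promoters of genes at 10 CPM. CCAAT was present in 60.6%, against 33.8% and 36.1%, and both motifs in 33.0%, against 6.02% and 4.89%. All 8 score gene promoters held CCAAT, 6 of them at least 2 copies, and 2 (25%) held a CHR. A match is a description of letters and not a bound site.

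The promoters below are shown for genes of the groups just described, with CHR and CCAAT matches on either strand in capitals, read 5′ to 3′ on the gene's strand. Top2a (chr11:99024190-99024439, minus strand) held 4 CHR and 6 CCAAT matches. Cdk1 (chr10:69352913-69353162, minus strand) held 2 and 3, Cdc20 (chr4:118437344-118437593, minus strand) held 1 and 2, Depdc1a (chr3:159495183-159495432, plus strand) held 1 of each, and Fam83d (chr2:158767849-158768098, plus strand) held 1 and 3. In these 5 windows the last CHR lay 23, 15, 18, 16 and 50 bases before the start. Nusap1 (chr2:119618048-119618297, plus strand), the highest gene, held neither, so its window has no capitals.
Top2a: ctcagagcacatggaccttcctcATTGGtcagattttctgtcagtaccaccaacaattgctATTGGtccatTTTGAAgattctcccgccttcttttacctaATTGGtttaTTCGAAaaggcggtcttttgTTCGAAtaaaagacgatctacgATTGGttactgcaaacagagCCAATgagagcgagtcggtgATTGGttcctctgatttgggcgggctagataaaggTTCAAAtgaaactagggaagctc
Cdk1: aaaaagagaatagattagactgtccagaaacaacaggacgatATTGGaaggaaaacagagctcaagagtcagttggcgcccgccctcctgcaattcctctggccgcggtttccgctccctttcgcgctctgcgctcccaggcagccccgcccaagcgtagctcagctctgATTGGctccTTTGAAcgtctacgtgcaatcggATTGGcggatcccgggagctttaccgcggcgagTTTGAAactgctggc
Cdc20: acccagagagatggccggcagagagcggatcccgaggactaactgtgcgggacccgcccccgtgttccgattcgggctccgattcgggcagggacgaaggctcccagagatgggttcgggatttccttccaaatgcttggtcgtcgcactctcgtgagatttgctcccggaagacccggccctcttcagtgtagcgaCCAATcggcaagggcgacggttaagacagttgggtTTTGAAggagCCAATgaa
Depdc1a: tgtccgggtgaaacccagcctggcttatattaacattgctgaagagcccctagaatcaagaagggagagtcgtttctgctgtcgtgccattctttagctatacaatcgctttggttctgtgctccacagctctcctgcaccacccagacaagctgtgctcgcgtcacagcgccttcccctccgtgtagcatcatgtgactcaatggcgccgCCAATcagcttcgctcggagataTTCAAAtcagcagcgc
Fam83d: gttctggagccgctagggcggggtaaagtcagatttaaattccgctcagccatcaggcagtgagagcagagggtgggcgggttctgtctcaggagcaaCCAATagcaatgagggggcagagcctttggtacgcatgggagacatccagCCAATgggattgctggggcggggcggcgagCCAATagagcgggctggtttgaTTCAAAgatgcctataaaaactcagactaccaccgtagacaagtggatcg
Nusap1: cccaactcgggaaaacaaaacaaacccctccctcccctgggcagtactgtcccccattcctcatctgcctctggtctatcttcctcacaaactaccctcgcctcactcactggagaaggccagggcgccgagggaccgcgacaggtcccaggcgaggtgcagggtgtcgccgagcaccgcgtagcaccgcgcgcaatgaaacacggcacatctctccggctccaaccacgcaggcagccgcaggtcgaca

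Lists of genes with known roles in division were described by their medians and counts. Over 7 such lists together, 125 of 128 genes reached 10 CPM. Of these, 46 were at least 1.5-fold higher in high-score cells of both libraries and none lower, against 1.19% and 0.0869% of all genes. The median log2 ratio of the 125 was 0.46 in control and 0.53 in sonKD. Of the 125, 102 were above 0 in both libraries and 8 below 0 in both. Over all 8055 genes, 3008 (37.3%) were above 0 in both and 2428 (30.1%) below 0 in both. Per cell, these lists summed to a median of 173 UMIs per 10000 (quartiles 153 and 189) in control high-score cells and 116 (101 and 133) in other control cells. In sonKD the medians were 159 (144 and 181) and 107 (92.5 and 124). The middle ranges of the classes did not overlap in either library.

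Motor and spindle proteins had the highest list medians, kinesins in control and the spindle list in sonKD. Of 12 mitotic kinesins, all were above 0 in both libraries, against 37.3% of all genes. In both, 9 were at least 1.5-fold higher, against 1.19% of all genes, and the medians were 0.77 and 0.81. Kif23, the kinesin of the central spindle, was at 120 against 59.0 CPM in control and 98.9 against 47.5 CPM in sonKD. Kif11, which pushes spindle poles apart, had log2 ratios of 0.88 and 0.92, whereas Kif15, a kinesin with an overlapping role, had 0.14 and 0.27. The spindle and cytokinesis list had medians of 0.65 and 0.82, with 14 of 21 genes at least 1.5-fold higher in both, against the same 1.19%. Stmn1, a microtubule destabilizer, was abundant and nearly level, at 927 against 890 CPM in control and 975 against 969 CPM in sonKD.

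The chromosomal passenger complex corrects faulty attachments at the centromere. Its kinase Aurkb was at 54.4 against 28.4 CPM in control and 47.6 against 24.8 CPM in sonKD, and its scaffold Incenp at 179 against 92.8 and 167 against 81.1 CPM. Sgo2a, a shugoshin that protects centromeric cohesion, had log2 ratios of 0.98 and 0.99. The other 3 members, Sgo1, Birc5 and Cdca8, had ratios between 0.43 and 0.59, so that the list's medians were 0.72 and 0.77.

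Among 16 mitotic entry kinases and cyclins, 7 were at least 1.5-fold higher in both libraries, against 1.19% of all genes. All 16 were above 0 in both, against 37.3%, and the medians were 0.53 and 0.58. Tpx2, the activator of Aurora A, was the most abundant at 568 against 311 CPM in control and 564 against 283 CPM in sonKD. Cdc25c, a phosphatase that activates CDK1, had log2 ratios of 0.81 and 1.19. The cyclins differed among themselves: Ccna2 had 0.50 and 0.55, and Ccnb2 had 0.23 and 0.28, below the ratios of Ccnb1.

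Kinetochore and checkpoint genes were mixed. Of 29 kinetochore genes, 6 were at least 1.5-fold higher in both libraries, against 1.19% of all genes, and the medians were 0.20 and 0.19. Knl1, the checkpoint platform, had log2 ratios of 0.74 and 0.90. Of the 29, 18 were above 0 in both libraries and 2 below 0 in both, against 37.3% and 30.1% of all genes. The 2 were Mis12, of the outer kinetochore, at -0.02 and -0.17 and Cenph, of the inner kinetochore, at -0.11 and -0.23. Another inner member, Cenpn, had 0.30 and 0.25. Of 26 checkpoint and anaphase promoting complex genes, 3 were at least 1.5-fold higher in both, against the same 1.19%, namely Fzr1, Bub3 and Ttk. Bub3 had 0.72 and 0.81 and Ttk 0.62 and 0.87. Over the 26, 17 were above 0 in both libraries and 5 below 0 in both, against 37.3% and 30.1% of all genes. Core subunits of the complex went both ways, with Anapc11, its RING subunit, at -0.18 and -0.21, Anapc2, its cullin, at 0.33 and 0.30, and Cdc27 at 0.27 and 0.38. Checkpoint genes also varied, as Mad2l1 had 0.09 and 0.25.

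The condensin and mitotic chromosome list had medians of 0.36 and 0.48. Of its 15 genes, 4 were at least 1.5-fold higher in both libraries, against 1.19% of all genes. Mki67, the surfactant of mitotic chromosomes, had 0.88 and 1.05. Smc4, a core ATPase of condensins I and II, had 0.76 and 0.85, its partner Smc2 had 0.36 and 0.49, and Ncapg2, a subunit of condensin II alone, had -0.28 and -0.11. Tubulin genes, which supply the microtubules, had medians of 0.15 and 0.19. Of the 10, Tuba1c alone passed 1.5-fold in both, against 1.19% of all genes. Tuba1c was at 117 against 57.1 CPM in control and 70.8 against 38.7 CPM in sonKD. Tubb4b was at 1130 against 825 CPM and at 1128 against 798 CPM.

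**Figure D3:**
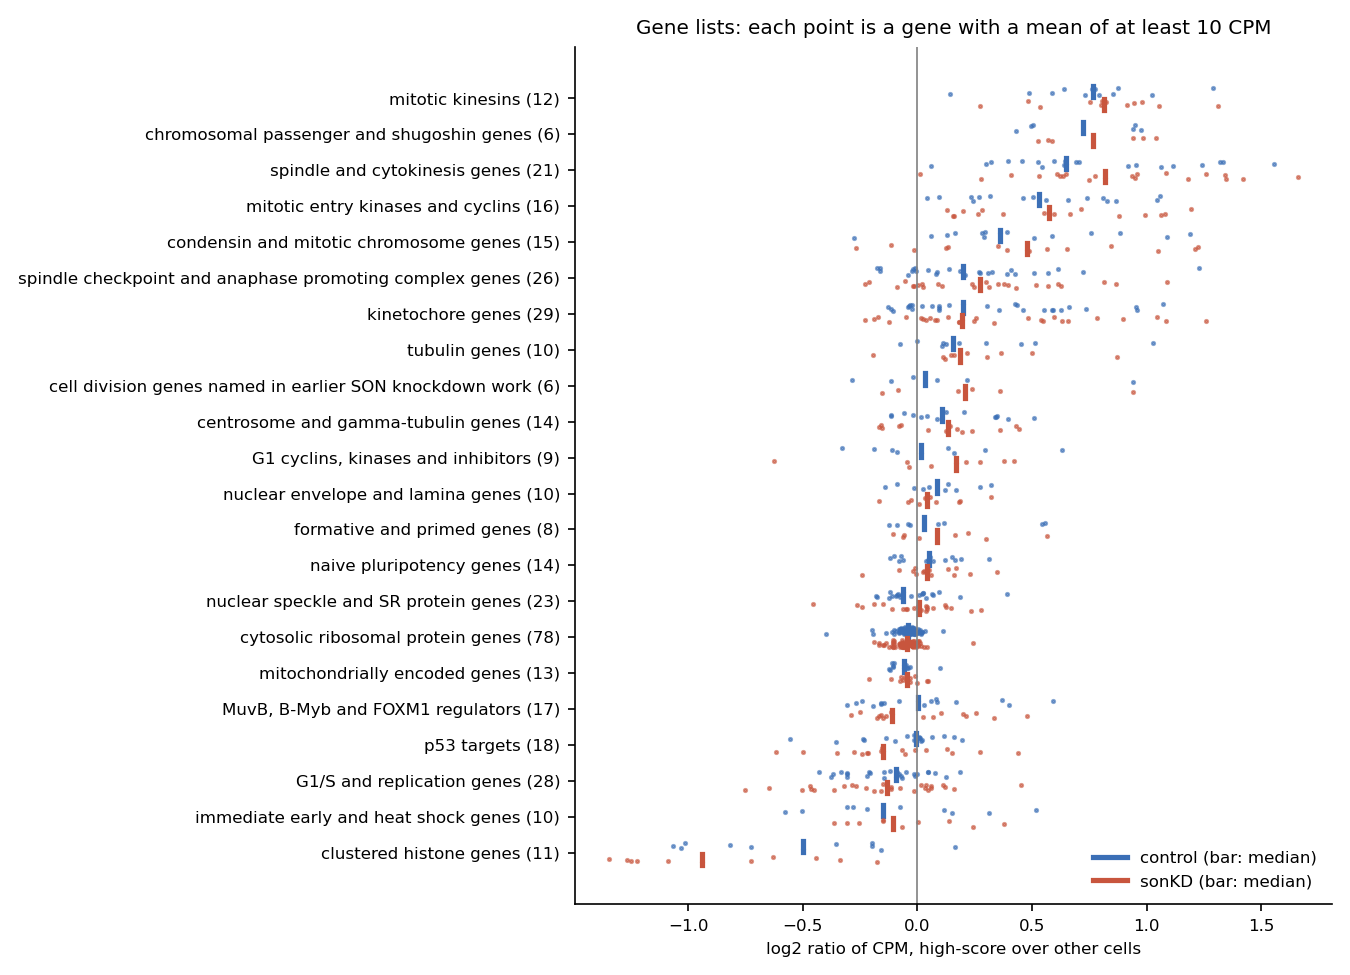
Log2 ratio of CPM in high-score over other cells (x axis) for every gene of each list at 10 CPM (points), with the list median per library (bars) and the number of genes in parentheses. The kinesin, passenger and spindle lists have medians above 0.6 in both libraries, and the clustered histone list lies lowest at -0.50 in control and -0.94 in sonKD.

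Structures that enclose or organize the spindle showed smaller ratios. Of 10 nuclear envelope genes and 14 centrosome genes, none was 1.5-fold higher in both libraries, against 1.19% of all genes. With so low a share, none among so few genes says little. The medians were 0.09 and 0.04 for the envelope and 0.11 and 0.13 for the centrosome. Cdk5rap2, which anchors gamma-tubulin complexes at centrosomes, had 0.39 and 0.44, and Lbr, the lamin B receptor, 0.32 and 0.19. The regulators of the late program were near 0 as a list, with medians of 0.00 and -0.11 over 17 MuvB, B-Myb and FOXM1 genes. Foxm1, the activator of late genes, had the highest ratio at 0.59 and 0.48 from 83 and 42 UMIs in high-score cells, and Mybl2, which encodes B-MYB, was level at 517 against 496 CPM in control and 449 against 428 CPM in sonKD.

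The lower end of the ranking was led by replication-dependent histones. Hist1h1b, a linker histone gene, was at 428 CPM in high-score and 897 CPM in other control cells, and at 448 and 1137 CPM in sonKD. Its log2 ratio was -1.07 (-1.13 to -1.01) in control and -1.34 (-1.42 to -1.27) in sonKD. Of 67 clustered histone genes, 11 reached 10 CPM. Of the 11, 5 were at least 1.5-fold lower in both libraries, against 0.0869% of all genes, and 10 were below 0 in both, against 30.1%. The exception was Hist1h3d at 0.16 in control and -0.18 in sonKD. Near-identical copies make the counts of single histone genes uncertain. The libraries were made from polyadenylated RNA, so the counts speak for histone RNA captured that way and not for all histone RNA.

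Genes of the G1/S transition and replication were mostly lower in high-score cells, by small ratios. Of 28 at 10 CPM, 17 were below 0 and 4 above 0 in both libraries, against 30.1% and 37.3% of all genes. None was 1.5-fold higher or lower in both, against 1.19% and 0.0869% of all genes, and the medians were -0.09 and -0.13. Chaf1b, a subunit of the chromatin assembly factor of replication, was the lowest at 45.8 against 61.8 CPM in control and 37.5 against 63.2 CPM in sonKD. Slbp, which binds the histone RNA stem-loop, had -0.37 and -0.65, and Pcna, the sliding clamp, -0.33 and -0.46. Cdt1, a licensing factor, was higher at 0.18 and 0.45. High-score cells were therefore low in captured histone RNA and, by a smaller margin, lower in most replication factors.

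The other low genes were of mixed function. Mdm2, the ubiquitin ligase of p53, was at 99.7 against 147 CPM in control and 86.1 against 132 CPM in sonKD, log2 ratios of -0.56 and -0.62. Zfp143, a zinc finger transcription factor, was at 28.9 against 50.2 and 28.4 against 44.4 CPM. S100a6, a calcium-binding protein, had -0.54 and -0.70. Rpusd2, EU599041, B3gnt7, Slc30a7, Lrr1 and Pus3 had 19 to 62 UMIs in the high-score cells of either library, and the intervals of Rpusd2, Slc30a7 and Lrr1 reached above 0 in sonKD. The 18 p53 targets at 10 CPM, Mdm2 included, had medians of 0.00 and -0.15. Of the 18, 4 were above 0 and 8 below 0 in both libraries, against 37.3% and 30.1% of all genes. Perp, a desmosomal membrane protein of this list, had -0.24 and -0.28.

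All kept cells were ranked by score and divided into 10 steps with equal numbers of cells over both libraries. The 7 division lists summed to 9435 CPM in step 1 and 17426 CPM in step 10 in control, and to 8144 and 16581 CPM in sonKD, with a higher value at each step. The G1/S list summed to 3801 CPM in step 1, 4513 CPM in step 3 and 3868 CPM in step 10 in control. Clustered histones summed to 1727 CPM in step 3 and 835 CPM in step 10 in control, and to 2480.3 CPM in step 4 and 958 CPM in step 10 in sonKD. Captured histone RNA was thus highest in step 3 or 4 and lowest in the high-score cells of both libraries.

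Mdm2 did not follow the score evenly. It was at 411 CPM in step 1, 191 CPM in step 2 and 99.7 CPM in step 10 in control, and at 340.5, 163 and 86.1 CPM in sonKD. Mdm2 was thus highest in cells of the lowest scores, and steps 5 to 10 lay between 96.3 and 115 CPM in control. Fzr1 went from 27.1 CPM in step 1 to 89.4 CPM in step 10 in control and from 18.4 to 61.3 CPM in sonKD, and Zfp143 went from 60.2 to 28.9 CPM and from 55.5 to 28.4 CPM.

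**Figure D4:**
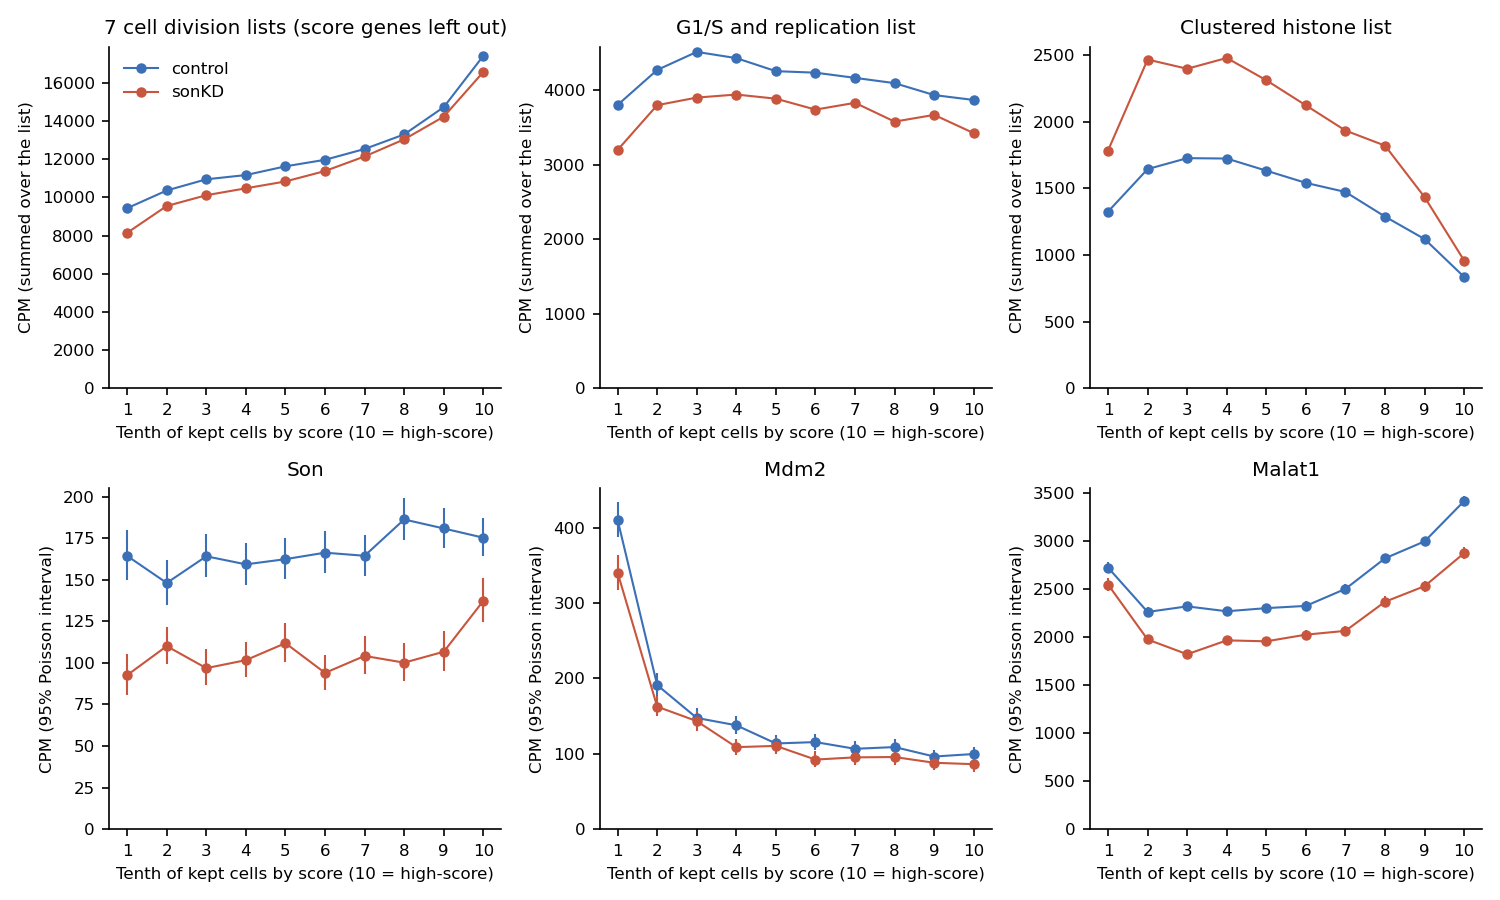
Summed or single-gene CPM (y axis, from 0) in 10 steps of equal cell number, ranked by score over both libraries (x axis), for the 7 division lists, the G1/S and histone lists, Son, Mdm2 and Malat1, with 95% Poisson intervals for genes. Division genes climb to 17426 CPM in control, histones drop to 835 CPM, Mdm2 is highest in step 1 at 411 CPM in control, and Son in sonKD is highest in step 10 at 137 CPM.

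Cells ranked highly by other parts of the cycle were rare among high-score cells. The top 10% of all kept cells by the G1/S list included 30 of 550 control high-score cells, or 5.45% (3.71 to 7.70), against 13.4% of other control cells. In sonKD it included 3 of 221, or 1.36% (0.281 to 3.92), against 5.78%. The top 10% by clustered histones included 3 of 550, or 0.545% (0.113 to 1.59), against 5.53% in control, and 8 of 221, or 3.62% (1.58 to 7.01), against 20.5% in sonKD. The histone group was itself unevenly split, with 248 control and 523 sonKD cells.

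High-score cells also varied among themselves. Cells above the median score of the high-score cells (275 in control, 111 in sonKD) were set against those below it (275 and 110), with median depths of 9259 against 8770 UMIs in control and 14027 against 13778 UMIs in sonKD. The 7 division lists had medians of 0.16 and 0.15 in this comparison, against 0.01 and 0.00 over all genes, and 81 of 125 genes were above 0 in both libraries, against 28.2% of all genes. Clustered histones had -0.31 and -0.44. Nusap1 was at 299.7 against 217 CPM in control and 299.7 against 225 CPM in sonKD. Mdm2 was here higher in the upper group, at 125 against 73.9 CPM and 102 against 69.9 CPM, and the p53 list had medians of 0.38 and 0.37 with 13 of 18 genes above 0 in both. The direction of Mdm2 within high-score cells was thus opposite to that between high-score and other cells.

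Pluripotency genes were similar in the classes. Pou5f1 was at 1089 against 1106 CPM in control and 881 against 920 CPM in sonKD, and Sox2 at 362 against 350.5 and 343 against 335 CPM. Nanog had log2 ratios of 0.15 (0.05 to 0.25) and 0.17 (0.04 to 0.30). The naive list had medians of 0.05 and 0.04 over 14 genes, with Nr5a2, a nuclear receptor that supports Pou5f1 expression, highest at 0.31 and 0.35. The formative list had medians of 0.03 and 0.08 over 8 genes, with Otx2 at 0.54 and 0.57 from 77 and 42 UMIs in high-score cells. The list of G1 cyclins, kinases and inhibitors had medians of 0.02 and 0.17 over 9 genes. Its inhibitors went both ways: Cdkn1b, which encodes p27, was at 41.0 against 26.4 CPM in control and 29.4 against 22.6 CPM in sonKD, and Cdkn1c, which encodes p57, was at 40.8 against 51.2 CPM and 27.1 against 41.8 CPM.

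Of the markers of other cell types, the fibroblast and mesoderm lists had the lowest sums in high-score cells. Of 7 fibroblast markers, Col3a1, Postn, Col1a2, Dcn and Lum had no UMI in high-score cells of either library, and the list summed to 4.47 and 5.87 CPM in high-score and 2.99 and 3.42 CPM in other cells of control and sonKD. Mesoderm and streak markers summed to 0.583 and 1.96 CPM, against 1.17 and 0.932 CPM in other cells, with T, Hand2 and Foxf1 at 0 in high-score cells. Primitive endoderm markers summed to 31.5 and 24.5 CPM, against 36.3 and 29.1 CPM, with Sox17 and Foxa2 at 0 in high-score cells. Trophectoderm markers summed to 67.6 and 68.9 CPM, against 66.9 and 90.5 CPM, with Elf5 at 0 in high-score cells. Neuroectoderm markers summed to 153 and 133 CPM against 120 and 104 CPM in other cells, with Ncam1 and Tubb3 as the 2 genes at 10 CPM. Tubb3 is also a member of the tubulin list.

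Of the nuclear noncoding RNAs, Malat1 was higher in high-score cells and Neat1 was not. Malat1, a nuclear speckle noncoding RNA, was at 3419 CPM against 2522 CPM in control and 2876 CPM against 2119 CPM in sonKD, a log2 ratio of 0.44 in both libraries. Neat1, the scaffold of paraspeckles, was level within each library at 85.7 against 87.5 CPM and 223 against 224 CPM. Of 23 nuclear speckle and SR protein genes, none was 1.5-fold higher or lower in both libraries. Of all genes 1.19% and 0.0869% were, so that count says little. The medians were -0.06 and 0.01. Srsf5 had the highest ratio at 0.39 and 0.28. Malat1 was also high in step 1 of the score, with 2725 CPM for control and 2548 CPM for sonKD, where median depth was lowest at 5843.5 and 8233 UMIs.

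High-score cells of sonKD were then set against high-score cells of control, which describes how the 2 libraries differed in cells past the same score threshold. Of the 8055 genes, 113 (1.4%) were at least 1.5-fold higher in sonKD and 279 (3.46%) at least 1.5-fold lower. In other cells these were 82 (1.02%) and 101 (1.25%). The balance of higher and lower genes depended on the filter and the scaling. In high-score cells it was 46 higher and 31 lower at 50 CPM, 155 and 206 with TMM factors, and 200 and 259 without mitochondrial and ribosomal protein genes, and in other cells the last 2 settings gave 122 and 56, and 100 and 65. With the top 5% as high-score cells it was 200 higher and 586 lower. The high-score sums were shallower, at 5147991 and 3064505 UMIs against 35754913 and 28968046 UMIs in other cells, and a shallow sum spreads ratios more, so the counts are not comparable between the classes. The median log2 ratio over all genes was -0.10 in high-score and -0.12 in other cells.

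Division genes had ratios between the libraries close to those of all genes. The same score threshold set the classes in both libraries, and that choice also bears on the division genes. The closeness in high-score cells therefore cannot show that the libraries were alike in division genes. The 7 lists had a median sonKD over control log2 ratio of -0.10 in high-score cells, equal to that of all genes to 2 decimals, and -0.17 in other cells. Of the 125 genes, 1 was at least 1.5-fold higher in sonKD high-score cells and 1 lower, against 1.4% and 3.46% of all genes. The first was Cenpw, a histone-fold kinetochore protein, at 70.2 CPM in sonKD and 44.7 CPM in control, and the second was Anapc2, the cullin subunit of the anaphase promoting complex, at 27.1 and 47.2 CPM; both were named after their values were seen. Cdk1 had a log2 ratio of 0.31 (0.15 to 0.46) in high-score and 0.29 (0.21 to 0.36) in other cells.

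Genes named in earlier work on SON loss in dividing cells were also read. Of 6 such genes, 1, Aurkb, was 1.5-fold higher in high-score over other cells of both libraries, against 1.19% of all genes. Between the libraries, none of the 6 was 1.5-fold higher or lower in sonKD high-score cells, against 1.4% and 3.46% of all genes. The median log2 ratio of the 6 was -0.16 in high-score and -0.30 in other cells. Tubulin genes had medians of -0.39 in high-score and -0.32 in other cells, with Tuba1c at -0.72 (-0.95 to -0.49) and -0.56 (-0.67 to -0.46).

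Son itself differed less between the libraries in high-score cells than in other cells. Its log2 ratio of sonKD over control was -0.35 (-0.52 to -0.18) in high-score cells, where sonKD held 78.3% of the control level, and -0.71 (-0.78 to -0.65) in other cells, where it held 61.1%. The difference between these ratios was 0.36 (0.18 to 0.54), from 903 control and 421 sonKD UMIs in high-score cells. Within control Son was level, with a log2 ratio of high-score over other cells of 0.07 (-0.04 to 0.17), and within sonKD the ratio was 0.42 (0.27 to 0.57). With 1 library per group the interval covers counting error only, and Son overlaps Donson on the opposite strand (chromosome 16, 91647506 to 91679221, GRCm38).

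The steps of the score placed the higher Son level of sonKD at the top. Son lay between 92.7 and 112 CPM in steps 1 to 9 of sonKD and at 137 CPM in step 10, and between 148 and 186 CPM in all 10 steps of control. Above the median score of the high-score cells it was at 161 CPM in sonKD, against 112 CPM below it, a log2 ratio of 0.52 (0.23 to 0.81), and the control values were 178 and 173 CPM. At a common depth of 2500 UMIs, Son was detected in 28.1% (22.2 to 34.5) of sonKD high-score and 21.3% (19.7 to 23.0) of other sonKD cells, and without thinning in 72.4% and 58.7%. In control the thinned shares were 35.8% and 33.7%. With the top 5% as high-score cells, the sonKD over control ratio of Son was -0.11, and with the top 10% within each library it was -0.47. No cell type that lacks Son was present as a background, and Son made up 77.1 CPM of the free RNA of control and 27.9 CPM of that of sonKD.

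**Figure D5:**
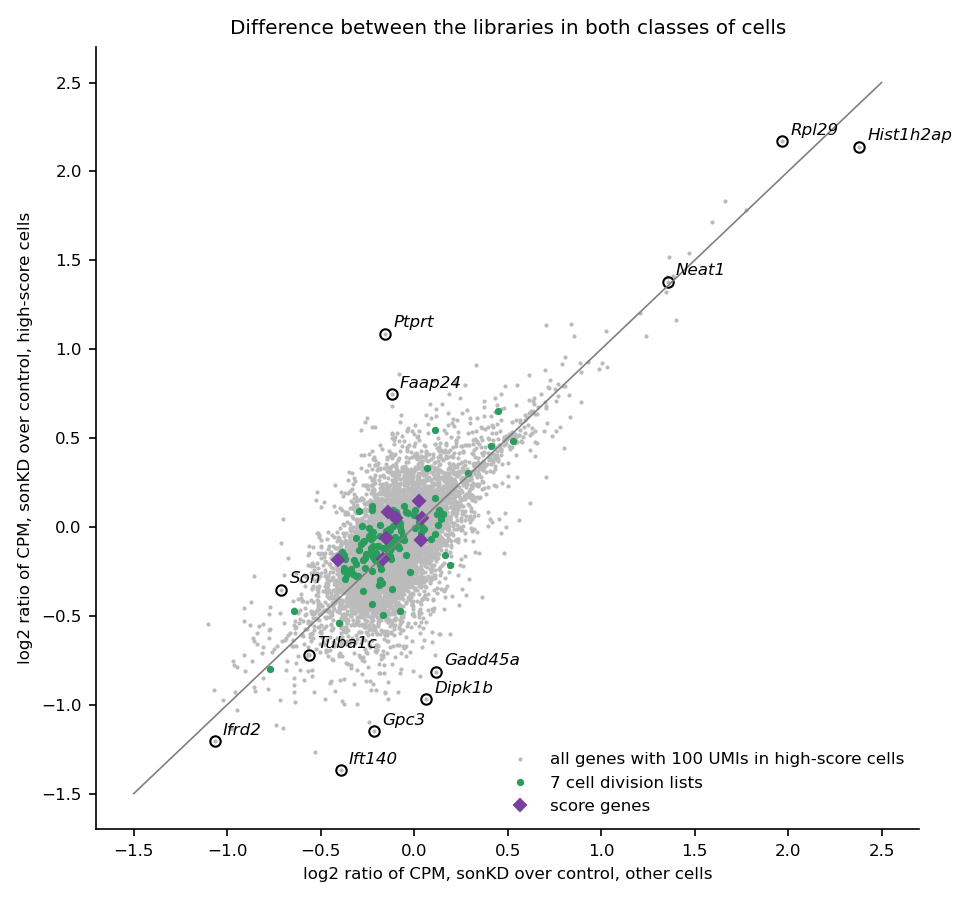
Log2 ratio of CPM, sonKD over control, in other cells (x axis) and in high-score cells (y axis) for genes with at least 100 UMIs in high-score cells; the line marks equal ratios. Division genes (green) have medians of -0.17 (x) and -0.10 (y). The place of the score genes (purple) depends on the choice of cells by them, and that choice also bears on the division genes. Son lies above the line at -0.71 and -0.35, and Neat1 lies on it at 1.36 and 1.38.

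Genes with high ratios of sonKD over control in high-score cells had high ratios in other cells as well. Rpl29 had log2 ratios of 2.17 in high-score and 1.97 in other cells, Hist1h2ap 2.14 and 2.38, and Rps27 1.78 in both. Gm10076, Gstp1, Rps2 and Rpl9 followed between 1.41 and 1.71. These genes belong to families with near-identical copies, so their counts depend on how shared reads were assigned. Neat1 was at 223 CPM in sonKD and 85.7 CPM in control high-score cells, a ratio of 1.38 (1.2 to 1.56), and had 1.36 in other cells.

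The lowest ratios in high-score cells were those of Ift140, a ciliary transport protein, at -1.37 (-2.13 to -0.67), Mrgbp, a chromatin complex subunit, at -1.27, and Ifrd2 at -1.20 (-1.63 to -0.79). High-score cells held Ifrd2 at 45.8 CPM (control) and 19.9 CPM (sonKD), and its ratio in other cells was -1.07. Gpc3, a cell surface glypican, Fam173a, Cluh, Pigt and Rundc3a followed between -1.15 and -1.12. Ift140, Mrgbp and Gpc3 had ratios of -0.39, -0.53 and -0.22 in other cells. These genes were chosen for their ratios in the shallower high-score sums, which by itself favours ratios nearer to 0 in the other cells.

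The genes whose ratio of sonKD over control differed most between the classes had few UMIs. Ptprt, a receptor tyrosine phosphatase, was at 20.2 CPM in sonKD and 9.52 CPM in control high-score cells, from 62 and 49 UMIs, and its ratio was 1.24 (0.64 to 1.86) above that in other cells. Eif4ebp3, Faap24, Vps11 and Pea15a had differences between 0.85 and 0.94. At the other end Dipk1b had -1.03 (-1.79 to -0.32), and Ift140, Gpc3, Gadd45a and Tmem127 had differences between -0.97 and -0.87. These 10 were the ends of a ranking over all genes with at least 100 UMIs in high-score cells, and their intervals are not adjusted for that choice. Ribosomal protein genes, whose list medians were 0.32 in high-score and 0.36 in other cells, made up 19.8% of the UMIs of control high-score cells and 22.9% of those of sonKD, against 20.3% and 23.6% in other cells.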

How the data were processed

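Per the labels, single-cell 3' libraries were made from polyadenylated RNA of 1 control and 1 sonKD culture; the labels name different NextSeq models. The deposited matrices hold raw UMI counts for every barcode, made by the authors with Cell Ranger 7.1.0 on mm10, per the submitters' processing notes; which annotation was used, and whether intronic reads were counted, is not given in the sources used here. The values were whole numbers.

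Counts of kept cells were summed per class and library and divided by the class total to give CPM. Log2 ratios have no pseudocount; a count under 3 was set to 3. Genes needed a mean of 10 CPM over both libraries. Intervals are exact Poisson (CPM), Clopper-Pearson (shares) and conditional binomial (ratios), at 95%, for counting error only. The difference of 2 ratios combines their bounds as a root sum of squares. Thinning drew 2500 UMIs per cell without replacement with a fixed seed. Scrublet from scanpy 1.11.5 was run per library; its calls were under 0.5%, so doublets stayed in, and an alternative removed the highest scores at 0.8% per 1000 cells. TMM factors came from edgeR 4.0.16. The calculation of ratios and intervals was checked on simulated counts with known ratios.

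Members and gene lists were chosen with earlier results of these data known. Named genes are the 8 score genes, Son, Pou5f1, Sox2, Nanog, Malat1 and Neat1, the 20 highest and 15 lowest ratios of high-score over other cells (ranked by the ratio nearer to 0), the 2 members of each of 27 lists farthest from 0, the 8 highest and 8 lowest ratios of sonKD over control in high-score cells, and the 5 highest and 5 lowest differences of that ratio between the classes. The last 2 rankings need 100 UMIs in high-score cells. Some genes this rule names are not reported here. Other genes were named after their values were seen, as examples of their list. With 1 sample per group no p-value was computed. Of 32285 gene identifiers, 32158 occur in GENCODE M21, used for positions. Promoters are from RefSeq (GRCm38.p6).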

Additional observations from a re-analysis of the deposited data

Results flagged for a closer look

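Gadd45a, which is induced by growth arrest and DNA damage, had a log2 ratio of high-score over other cells of 0.49 (0.20 to 0.76) in control and -0.44 (-0.92 to -0.00072) in sonKD. It was singled out among the named genes because the libraries moved in opposite directions. Gadd45a was named for being among the 5 lowest differences of the sonKD over control ratio between the classes, a choice that favours opposite directions. The values were 25.3 CPM against 18 CPM in control and 14.4 CPM against 19.5 CPM in sonKD, from 130 and 44 UMIs in high-score cells. With 1 library per group the difference was not tested.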

How the results depend on the processing

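Across 11 alternatives, 117 of 144 values that answer a comparison stayed within their limits and 27 moved. A change of direction was looked for only in ratios of at least 1.5-fold, and none of the main values behind the 144 was such a ratio. The balance of genes higher and lower in sonKD did change sides in some settings, as given above. With the top 5%, 5.60% of control and 3.92% of sonKD cells had a high score, 20 genes were lower in both libraries, 200 genes were higher and 586 lower in sonKD high-score cells, and Son had log2 ratios of 0.67 (high-score over other cells, sonKD) and -0.11 (sonKD over control, high-score cells). With the top 10% within each library the shares were 10.0% and 10.03%, as that choice fixes them. Scoring after thinning left 63 genes higher in both libraries, and a limit of 5% mitochondrial UMIs gave 426 genes lower in sonKD high-score cells. At 50 CPM, 42 genes were higher in both libraries, 46 higher and 31 lower in sonKD high-score cells, and 46 higher and 29 lower in sonKD other cells. Without a filter these counts were 519, 1126, 1271, 1502 and 1360, and 71 genes were lower in both libraries. TMM factors gave 13 genes lower in both and 56 lower in sonKD other cells, and Son had -0.62 there. Without mitochondrial and ribosomal protein genes, 12 genes were lower in both, 200 higher in sonKD high-score and 65 lower in sonKD other cells, and Son had -0.64. The cause was not tested. Of the high-score cells, 68.2% in control and 67.9% in sonKD kept a high score after thinning. No paired analysis was possible because each group held 1 library.

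Depth limits genes near 10 CPM, which rest on about 50 UMIs in control and 30 in sonKD high-score cells. The labels cover 1 transfection per group, and no replicate check exists for any difference.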
